A study of Mus musculus with 2 samples.

Results

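The spots described here are 200 upper-layer cortex-like spots of 1 mouse brain section, out of 2334 brain spots with at least 5000 counts and 200 features, 4992 brain barcodes and 9984 barcodes in the series. They were selected by measured values. Among deep enough barcodes, 1569 passed a gate that required the summed counts of Cux2 and Lamp5 to reach those of Tbr1, Fezf2, Hs3st2 and Vxn. These were ranked by the summed counts of Cux2, Lamp5, Rasgrf2 and Mef2c over the total of the spot, and the top 200 were taken. The last spot inside held 16 ranking counts of 12975 and the first outside held 9 of 7300, which are nearly equal shares, and the spot ranked highest held 32 of 10334.

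The series measured total RNA by spRandom-seq, a random-primed spatial method, on 5 µm sections of formalin-fixed, paraffin-embedded (FFPE) tissue from normal mice, with 1 brain and 1 heart library. Both libraries have the same stated treatment, reverse transcription with a primer without cell barcode 2. Strain, sex, age and the number of animals are not given in the sources used here, and spot positions were not used here. Upper-layer-like spots were set against the 2134 remaining brain spots that pass the same depth cut. A second comparison used 200 deep-layer-like spots, which failed the gate and had the highest share of Tbr1, Fezf2, Hs3st2 and Vxn, and which are also among the remaining spots. The heart section served as a level in tissue without cortical neurons. A spot is a small region that can hold several cells of different types or part of one, and fewer cells of a type cannot be told apart from less RNA per cell.

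The mammalian neocortex is built in layers. Neurons of its upper layers mostly send axons to other cortical areas, including across the corpus callosum, and many carry the homeodomain factors Cux1 and Cux2. Neurons of its deep layers project to the thalamus, brainstem and spinal cord and depend on factors such as Tbr1, Fezf2 and Bcl11b. Layer 4, between them, receives thalamic input and is marked by Rorb.

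The promoters of 2 genes that were higher in upper-layer-like spots than in both sets of spots are shown, because the ratio of Pdzrn3 over the remaining spots was the highest among other abundant genes and because Cux1 is the paralog of the ranking gene Cux2. Both run 5′ to 3′ over the 250 bases before the gene start in RefSeq (GRCm38.p6, minus strand), with CG dinucleotides in capitals. The window of Pdzrn3 is chr6:101377898-101378147 and that of Cux1 is chr5:136565982-136566231.
Pdzrn3: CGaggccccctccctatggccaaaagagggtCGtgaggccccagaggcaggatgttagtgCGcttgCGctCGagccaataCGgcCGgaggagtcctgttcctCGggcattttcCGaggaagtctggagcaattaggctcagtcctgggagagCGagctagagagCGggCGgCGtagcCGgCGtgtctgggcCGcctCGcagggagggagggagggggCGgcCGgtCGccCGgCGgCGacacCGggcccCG
Cux1: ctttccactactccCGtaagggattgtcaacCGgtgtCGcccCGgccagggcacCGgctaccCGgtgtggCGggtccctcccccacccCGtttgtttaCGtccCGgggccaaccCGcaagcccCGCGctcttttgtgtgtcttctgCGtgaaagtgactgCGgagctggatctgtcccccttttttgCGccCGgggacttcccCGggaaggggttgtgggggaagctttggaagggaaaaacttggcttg
The Pdzrn3 window has 25 CG dinucleotides and 69.2% G or C, and 10.7% of 32851 promoter windows have at least as many CG dinucleotides. The Cux1 window has 18 and 62.8%, and 21.7% have at least as many. The median promoter has 6 and 52.4%, so both windows are rich in CG. DNA methylation was not measured here.

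Summed over barcodes, the brain section gave 37300503 counts and the heart section 44768698. Upper-layer-like spots had 5196 to 38327 counts (median 11639.5), deep-layer-like spots a median of 9010.5 and the remaining spots 5001 to 125909 (median 9487). The ribosomal DNA unit took a median of 28.4% of counts in upper-layer-like spots, 30.4% in deep-layer-like spots and 31.8% in the remaining spots, and mitochondrial features took 6.10%, 5.64% and 5.17% in the same order. Levels are therefore given as CPM, the summed counts per 1000000 counts outside ribosomal, mitochondrial and small structured RNA. After thinning each spot to 3000 such counts, a median of 1790 features was found in upper-layer-like spots (199 deep enough), 1803 in deep-layer-like spots (197) and 1809 in the remaining spots (2081), while without thinning the medians were 3300, 2837 and 2906. All 4992 barcodes occur in both libraries, and 145 of the 200 upper-layer-like barcodes also pass the depth cut in heart. With 1 library, spots are not replicates and there is no test. Intervals in parentheses are exact 95% intervals of the CPM ratio and cover counting error only.

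The ranking rested mostly on Mef2c, a transcription factor of many excitatory and inhibitory neurons, which gave 61.1% of the ranking counts. Rasgrf2, a Ras guanine nucleotide exchange factor, gave 19.2%, the homeodomain factor Cux2 14.5% and Lamp5, a lysosome-associated membrane protein family member found in upper layers and in a class of interneurons, 5.28%. In 156 of the 200 spots Mef2c gave most of the ranking counts. All 4 ranking genes were seen in 94 spots, at least 3 in 186, and 7 spots had no count of Cux2 or Lamp5.

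These levels describe the choice and are not a result. Mef2c was at 1523 CPM in upper-layer-like spots, 877 CPM in deep-layer-like spots and 437 CPM in the remaining spots. Rasgrf2 was at 478 CPM in upper-layer-like spots, 124 CPM in deep-layer-like spots and 219 CPM in the remaining spots. Cux2 was at 362 CPM in upper-layer-like spots, 97.0 CPM in deep-layer-like spots and 104 CPM in the remaining spots, and Lamp5 at 132 CPM in upper-layer-like spots, 34.7 CPM in deep-layer-like spots and 21.7 CPM in the remaining spots. All 4 were highest in the spots they chose. In heart the same genes were at 218 CPM for Mef2c, 107 for Rasgrf2, 74.6 for Cux2 and 4.13 for Lamp5. Of the gate genes, Hs3st2, a heparan sulfate sulfotransferase, was at 20.4 CPM in upper-layer-like spots, 320.2 CPM in deep-layer-like spots and 50.7 CPM in the remaining spots, and Vxn at 101 CPM in upper-layer-like spots, 543 CPM in deep-layer-like spots and 107 CPM in the remaining spots. Tbr1, a T-box factor, was at 50.7 CPM in upper-layer-like spots, 159 CPM in deep-layer-like spots and 32.5 CPM in the remaining spots, and Fezf2, a zinc finger factor, at 1.75 CPM in upper-layer-like spots, 24.4 CPM in deep-layer-like spots and 4.65 CPM in the remaining spots. The gate did not remove Tbr1: its level in upper-layer-like spots lay above that in the remaining spots, although below it, at -0.56 on the log2 scale, when ranked and gated without Cux2, and 136 of the 200 spots had at least 1 count of a gate gene.

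Each ranking gene was also measured in spots ranked without it. Cux2, left out of ranking and gate, was at 229 CPM in the 200 spots so chosen and 117 CPM in the rest (1.95-fold, 1.74 to 2.19). Lamp5, left out likewise, was at 90.8 CPM in the chosen spots and 25.3 CPM in the rest (3.59-fold, 2.97 to 4.30). Mef2c was at 997 CPM in the chosen spots and 485 CPM in the rest (2.06-fold, 1.95 to 2.17), and Rasgrf2 at 388 CPM in the chosen spots and 228 CPM in the rest (1.71-fold, 1.57 to 1.85). Each marker was thus higher in spots that the other 3 picked out, by less than under the full rule. The spots were not the same: leaving out Cux2 kept 110 of the 200, leaving out Mef2c 115, leaving out Rasgrf2 174 and leaving out Lamp5 177. When spots were chosen on 1 random part of the counts and measured on the other, equal part, the ratios were 2.35 for Cux2 (2.02 to 2.72), 4.52 for Lamp5 (3.47 to 5.83), 1.89 for Rasgrf2 (1.69 to 2.12) and 3.07 for Mef2c (2.87 to 3.27). This split takes out only the counting noise shared with the choice. The same 4 genes ranked the same spots, so these ratios also describe the choice and are not a result.

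**Figure D1:**
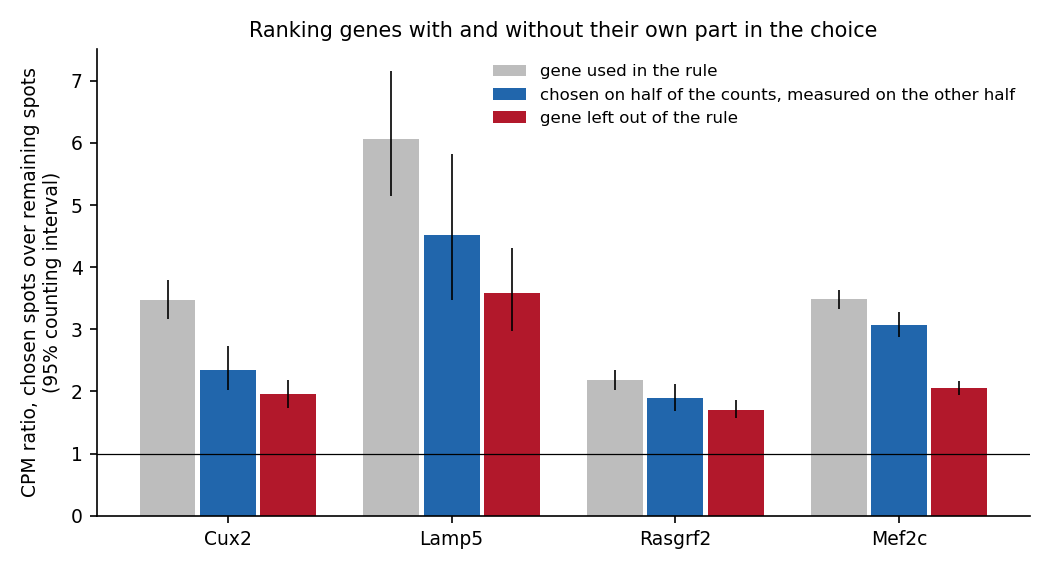
CPM ratio of chosen over remaining spots for the 4 ranking genes, with 95% counting intervals, where the gene was used in the rule (grey), where spots were chosen on 1 part of the counts and measured on the other (blue), and where the gene was left out of the rule (red). The red bars are the lowest for each gene, at 1.95 for Cux2, 3.59 for Lamp5, 1.71 for Rasgrf2 and 2.06 for Mef2c, all above 1. In grey and blue bars the gene itself helped to rank the spots, so they describe the choice.

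Outside the rule, upper-layer-like spots had more RNA of upper-layer genes, immediate early genes and some potassium channels than the remaining spots, and less RNA of many genes known from the thalamus, hippocampus, hypothalamus, choroid plexus and deep cortical layers. Of 4056 features that reached 50 CPM in 1 of the groups or in both, 208 (5.13%) were at least 1.5-fold higher in upper-layer-like spots and 285 (7.03%) at least 1.5-fold lower. The median log2 ratio over all of them was -0.05. With CPM over all counts of a spot instead, 193 were higher and 171 lower, and with the median ratio set to 1, a scaling added after the data were seen, 245 were higher and 238 lower, so the balance of directions depends on the scaling. Ranked without Mef2c, 77 were higher and 110 lower, of which 65 and 91 also passed under the full ranking, and ranked and gated without Cux2, 115 were higher and 161 lower. Being past 1.5-fold at 50 CPM is called passing the size rule in what follows. List counts over the remaining spots compare with the shares of 5.13% higher and 7.03% lower over all features. Unless stated otherwise, list medians cover all listed genes, also those under 50 CPM. They are therefore not on the same footing as the median over features at 50 CPM. Over deep-layer-like spots, 5.82% of all features passed as lower. In that comparison 0 passed as lower of 4 thalamus, 6 hippocampal pyramidal and 3 dentate granule genes at 50 CPM. The same held for 1 hypothalamus gene and 1 gene of meninges and choroid plexus. These numbers are too small to be set apart from the share over all features.

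Pdzrn3, a PDZ-domain RING-finger ubiquitin ligase whose promoter is shown above, had the highest ratio among features with at least 100 CPM outside the ranking genes. Its lowest, median and highest values over upper-layer-like spots were 0, 460.3 and 1578 CPM, and over the remaining spots the median was 0 and the highest 2864 CPM. The single-spot ranges overlapped fully, while Pdzrn3 was detected in 86.5% of upper-layer-like spots and 40.3% of the remaining spots. Summed over spots it was at 517 CPM in upper-layer-like spots and 157 CPM in the remaining spots (3.30-fold higher, 3.06 to 3.56). It was also at 305 CPM in heart, so it was not restricted to the brain section.

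Camk2n1, an inhibitor of calcium/calmodulin kinase II, had 0, 1612 and 5464 CPM as its lowest, median and highest values over upper-layer-like spots. The median over the remaining spots was 368 CPM and the highest 5653 CPM. The ranges overlapped, with the median of upper-layer-like spots well above that of the rest. In sum it was at 1566 CPM in upper-layer-like spots and 499.8 CPM in the remaining spots (3.13-fold higher, 3.002 to 3.27), against 20.5 CPM in heart. Deep-layer-like spots held 819 CPM of Camk2n1, a smaller difference (1.91-fold). Camk2a, a subunit of the kinase itself, was at 1141 CPM in upper-layer-like spots and 762 CPM in the remaining spots (1.497-fold), just short of the size rule. Camk2b was at 397 CPM in upper-layer-like and 493 CPM in remaining spots.

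Pparg, a nuclear receptor best known from fat cells, was at 114 CPM in upper-layer-like spots and 35.1 CPM in the remaining spots (3.26-fold higher, 2.76 to 3.82), with 95.6 CPM in heart. Cacng3, an auxiliary subunit of AMPA receptors, was at 200.4 CPM in upper-layer-like spots and 80.2 CPM in the remaining spots (2.498-fold higher, 2.22 to 2.81).

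Rgs6, a regulator of G protein signalling, was at 1026 CPM in upper-layer-like spots and 428 CPM in the remaining spots (2.40-fold higher, 2.28 to 2.53). Arpp19, an inhibitor of protein phosphatase 2A, was at 167 CPM in upper-layer-like and 69.7 CPM in remaining spots (2.40-fold), and Cobl, an actin nucleator, at 356 CPM in upper-layer-like and 152 CPM in remaining spots (2.35-fold). The 15 highest ratios also included the potassium channels Kcnh5 and Kcnh7, Olfm2, Prr16, 4930467D21Rik and Ipcef1, between 2.31-fold and 2.51-fold higher. Of these 15 genes, 8 overlap an annotated gene on the other strand, and strand use in counting is not given in the sources used here. Over deep-layer-like spots, Arpp19 (146 CPM there), Cobl (258 CPM), Kcnh7 (1192 CPM) and Ipcef1 (185 CPM) did not pass the size rule. Rgs6, Kcnh5, Olfm2, Prr16 and 4930467D21Rik passed it as higher in that comparison too.

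**Figure D2:**
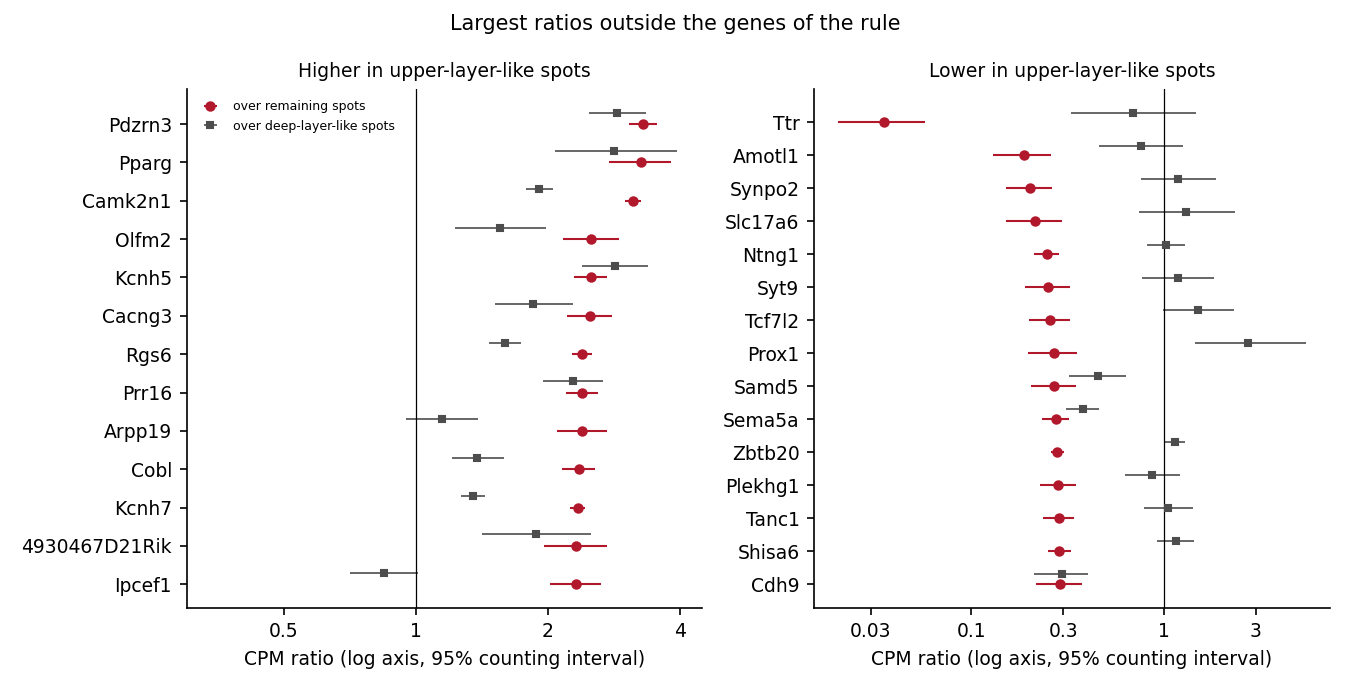
CPM ratios, on a log axis, of 13 of the 15 features of at least 100 CPM with the highest and the 15 with the lowest ratio of upper-layer-like over remaining spots (circles), with the same genes over deep-layer-like spots (squares) and 95% counting intervals. Ipcef1 sits under 1 over deep-layer-like spots, and genes such as Zbtb20 and Ntng1 that are low against the remaining spots sit near 1 against deep-layer-like spots.

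Upper-layer genes outside the rule were higher as a group. Of 18 listed, 17 had counts, 8 reached 50 CPM, 5 were higher, Cux1, Pou3f2, Unc5d and Lmo4 among them, and 0 lower, and the median log2 ratio was 0.65, against -0.05 over all features. Their summed level was 2675 CPM in upper-layer-like spots and 1756 CPM in the remaining spots. Per spot, it was above the median of the remaining spots in 183 of 200 upper-layer-like spots.

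Cux1, a homeodomain factor, was detected in 87.5% of upper-layer-like spots and 62.5% of the remaining spots and summed to 364 CPM in upper-layer-like spots and 164 CPM in the remaining spots (2.22-fold higher, 2.03 to 2.42). Heart held 302 CPM of Cux1, a widely expressed gene. Unc5d, a netrin receptor, was at 1032 CPM in upper-layer-like spots and 522 CPM in the remaining spots (1.98-fold higher, 1.88 to 2.08), and Pou3f2, a POU-domain factor, at 51.3 CPM in upper-layer-like and 16.7 CPM in remaining spots (3.07-fold). Lmo4, a LIM-domain protein, was at 112 CPM in upper-layer-like and 55.3 CPM in remaining spots. Rfx3, another listed gene, was at 372 CPM in upper-layer-like and 530.0 CPM in remaining spots and did not pass the size rule. Pou3f3 was listed at 0 in all of these groups.

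Of 8 layer 4 genes, 5 reached 50 CPM, of which Rorb, Kcnh5 and Plcxd2 were higher and Cdh8 lower, with a median log2 ratio of 0.45. Rorb, the nuclear receptor that marks layer 4, was at 252 CPM in upper-layer-like spots and 164 CPM in the remaining spots (1.54-fold higher, 1.39 to 1.70). Cdh8, a cadherin, was at 205 CPM in upper-layer-like spots and 311 CPM in the remaining spots (1.52-fold lower, 1.36 to 1.69). Rorb and Kcnh5 passed the size rule although the ranking did not use them.

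Most cortical excitatory genes were within 1.5-fold of the remaining spots. Of 23 listed, 22 had counts and 18 reached 50 CPM, of which Nrgn, Arpp21, Nrn1 and Lingo1 were higher and Gria1 lower, with a median log2 ratio of 0.33. Nrgn, a calmodulin-binding postsynaptic protein, was at 548 CPM in upper-layer-like spots and 261 CPM in the remaining spots (2.10-fold higher, 1.96 to 2.25). Gria1, an AMPA receptor subunit that is abundant in hippocampus, was at 678 CPM in upper-layer-like spots and 1348 CPM in the remaining spots (1.99-fold lower, 1.87 to 2.11). The summed level per spot was 5727, 14176 and 20990.3 CPM (lowest, median, highest) in upper-layer-like spots, and 965, 9472 and 27604 CPM in the remaining spots. The ranges overlapped, and 193 of 200 lay above the median of the remaining spots. Pan-neuronal genes were near level, at a summed ratio of 1.07 with 0 of 12 higher and Nefm lower, and a median log2 ratio of -0.16 that has the other sign.

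Among glutamate receptor genes, 0 were higher and 3 lower of 19 that reached 50 CPM (Gria1 and Grm4 among them), at a summed ratio of 0.996. Grin2a and Grin2b, subunits of NMDA receptors, were at 2092 CPM in upper-layer-like and 1959 CPM in remaining spots and at 2109.8 CPM in upper-layer-like and 1898 CPM in remaining spots. Among 12 GABA receptor genes at 50 CPM, 1 was higher, and Gabra5 and Gabrb1 were lower, although Gabrb1 stood at 0.0053 on the log2 scale when ranked without Mef2c. Gabra5, a subunit abundant in hippocampus, was at 30.3 CPM in upper-layer-like spots and 80.7 CPM in the remaining spots (2.66-fold lower, 2.02 to 3.58). Few genes passed in either receptor list, and the shares over all features were 5.13% higher and 7.03% lower.

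Voltage-gated potassium channel genes went in 1 direction where they passed the size rule. Of 18 that reached 50 CPM, 6 were higher and 0 lower, with a median log2 ratio of 0.06. Over all features the shares were 5.13% higher and 7.03% lower. Kcnh7, an ERG-family channel, had 0, 1545 and 3586 CPM as its lowest, median and highest values over upper-layer-like spots and a median of 500.3 CPM over the remaining spots, and summed to 1612 CPM in upper-layer-like spots and 689 CPM in the remaining spots (2.34-fold higher, 2.24 to 2.44). Kcnh5 and Kcnh1, of the EAG family, were at 379 CPM in upper-layer-like and 151 CPM in remaining spots (2.503-fold) and at 465 CPM in upper-layer-like and 234 CPM in remaining spots (1.99-fold). Kcnq5, an M-current channel, was at 1666 CPM in upper-layer-like spots and 838 CPM in the remaining spots (1.99-fold higher, 1.91 to 2.07). Kcnv1, a silent subunit, was at 63.5 CPM in upper-layer-like and 23.0 CPM in remaining spots. Kcnip4, which codes for an auxiliary protein of Kv4 channels, was level at 5512 CPM in upper-layer-like and 5345 CPM in remaining spots.

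Immediate early genes, which are induced by neuronal activity, were higher than in the remaining spots. Of 14 listed, 4 reached 50 CPM and Egr1, Egr3 and Homer1 were higher, with a summed ratio of 1.65 (1.57 to 1.73). Homer1, a postsynaptic scaffold with an activity-induced short form, was at 642 CPM in upper-layer-like spots and 353 CPM in the remaining spots (1.82-fold higher, 1.71 to 1.94). Egr1 was at 129.9 CPM in upper-layer-like spots and 76.3 CPM in the remaining spots (1.70-fold higher, 1.47 to 1.96) and Egr3 at 99.6 CPM in upper-layer-like and 46.7 CPM in remaining spots. Arc, at 49.5 CPM in upper-layer-like and 20.2 CPM in remaining spots, lay just under the 50 CPM floor. Deep-layer-like spots had as much: the summed ratio over them was 0.902 (0.844 to 0.965), and none of the 5 genes at 50 CPM passed the size rule in that comparison.

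**Figure D3:**
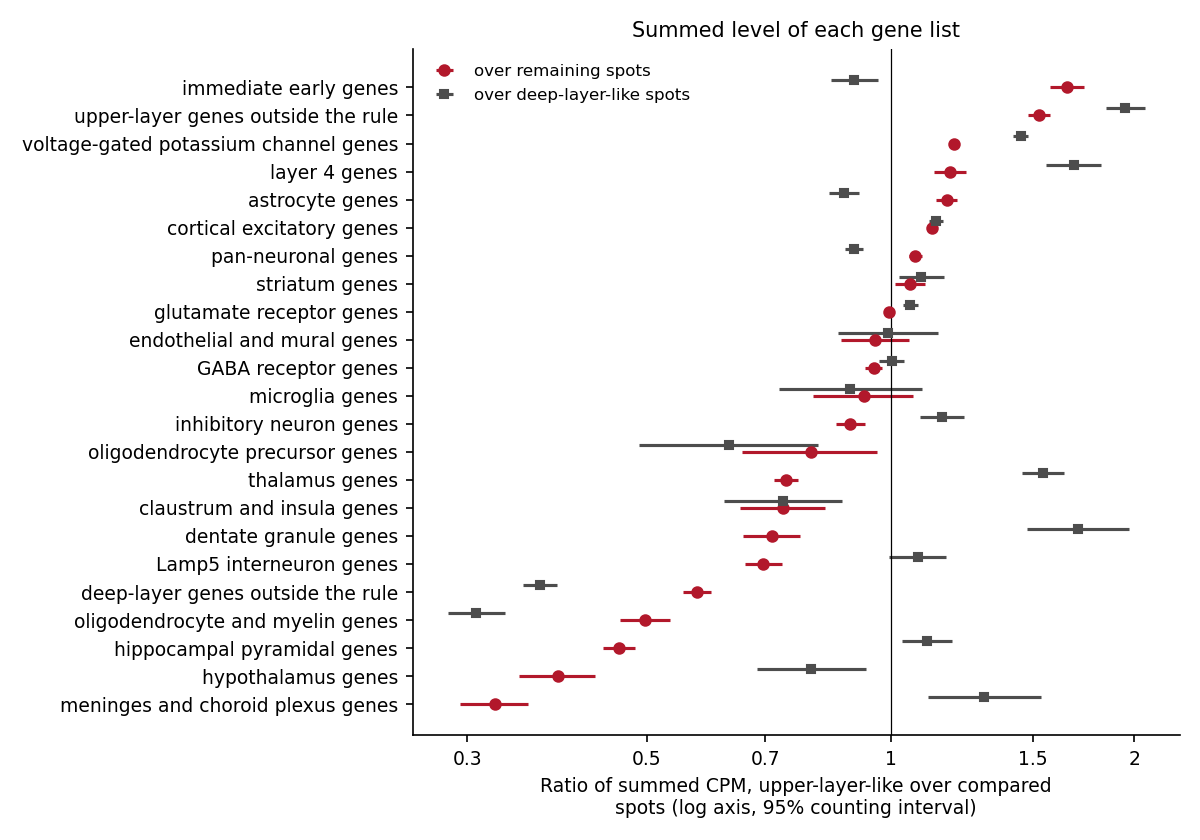
Ratio of summed CPM for each gene list, upper-layer-like over remaining spots and over deep-layer-like spots, on a log axis with 95% counting intervals. Upper-layer genes stand at 1.52 and 1.95, deep-layer genes at 0.577 and 0.368, and thalamus genes at 0.743 and 1.54. The thalamus sums rest largely on Rora. It gave 2677 of 3422 counts in upper-layer-like spots, 1149 of 1639 in deep-layer-like spots and 24998 of 51924 in the remaining spots.

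The lowest ratios at 100 CPM or more included genes of other brain regions. Ttr, the thyroid hormone carrier made by choroid plexus, was at 9.32 CPM in upper-layer-like spots and 263 CPM in the remaining spots (28.2-fold lower, 17.4 to 49.5). In single spots of the rest Ttr reached 24481 CPM and its highest value in an upper-layer-like spot was 413 CPM. Slc17a6, the vesicular glutamate transporter of thalamic and other subcortical neurons, was at 21.6 CPM in upper-layer-like spots and 100.4 CPM in the remaining spots (4.66-fold lower, 3.37 to 6.63). Tcf7l2, a Wnt pathway factor high in thalamus, was at 41.4 CPM in upper-layer-like spots and 161 CPM in the remaining spots (3.903-fold lower, 3.09 to 5.01). These low levels were shared with deep-layer-like spots, where Ttr was at 13.4 CPM, Slc17a6 at 16.6 CPM and Tcf7l2 at 27.6 CPM.

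Ntng1, a netrin family membrane protein of thalamic neurons, had 0, 55.6 and 2215 CPM as its lowest, median and highest values over upper-layer-like spots, and a median of 184 and a highest value of 5625 CPM over the remaining spots. It summed to 109 CPM in upper-layer-like spots and 440.2 CPM in the remaining spots (4.04-fold lower, 3.50 to 4.70). Deep-layer-like spots were at 106 CPM. Of 11 thalamus genes, 9 reached 50 CPM and 8 of these were lower, with a median log2 ratio of -1.96. Rora was the exception at 1559 CPM in upper-layer-like and 1291 CPM in remaining spots.

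Zbtb20, a zinc finger factor of hippocampus and astrocytes, was at 404 CPM in upper-layer-like spots and 1446 CPM in the remaining spots (3.58-fold lower, 3.32 to 3.86). The single-spot medians were closer, at 324 and 477 CPM, and the highest values were 4540 and 5683 CPM. It was detected in 89.0% of upper-layer-like spots and 89.0% of the remaining spots. Detection was not matched for depth, and upper-layer-like spots were deeper (median 11639.5 against 9487 counts). Prox1, the homeodomain factor of dentate granule cells, was at 27.96 CPM in upper-layer-like spots and 105 CPM in the remaining spots (3.74-fold lower, 2.81 to 5.09). Deep-layer-like spots held 354 CPM of Zbtb20 and 10.3 CPM of Prox1. Of 6 hippocampal pyramidal genes at 50 CPM, Zbtb20, Cpne4 and Hpca were lower and 0 higher, although Hpca was higher, at 0.14 on the log2 scale, with each spot weighted equally. Of 4 dentate granule genes, Prox1 and Glis3 were lower, although with the top 400 spots they stood at 0.025 and 0.29 on the log2 scale. All 3 hypothalamus genes at 50 CPM were lower, although ranked without Mef2c the sum of the list was higher, at 0.081 on the log2 scale, and so was Ahi1, at 0.20. Pmch, the precursor of melanin-concentrating hormone, was at 0.582 CPM in upper-layer-like spots, from 1 count, and 76.4 CPM in the remaining spots, Nnat was at 8.74 CPM in upper-layer-like and 56.4 CPM in remaining spots and Ahi1 at 172 CPM in upper-layer-like and 269 CPM in remaining spots.

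The others of the 15 lowest ratios were Amotl1, Synpo2, Syt9, Samd5, Sema5a, Plekhg1, Tanc1, Shisa6 and Cdh9, between 3.48-fold and 5.35-fold lower. Shisa6, an auxiliary subunit of AMPA receptors, was at 125 CPM in upper-layer-like and 438 CPM in remaining spots, opposite in direction to Cacng3. Cdh9 stood at 0.00182 on the log2 scale with the top 400 spots. Sema5a, a guidance protein, was at 89.7 CPM in upper-layer-like and 325 CPM in remaining spots. Of the 15 genes, 6 overlap an annotated gene on the other strand.

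Deep-layer genes outside the rule were lower. Of 22 listed, 11 reached 50 CPM, and Bcl11b, Foxp2, Tle4, Sulf1, Etv1, Zfpm2 and Hs3st4 were lower and 0 higher, with a median log2 ratio of -0.89. Hs3st4, a heparan sulfate sulfotransferase of layer 6, was at 221 CPM in upper-layer-like spots and 676 CPM in the remaining spots (3.05-fold lower, 2.76 to 3.39), and Bcl11b, a factor of subcortical projection neurons, at 59.4 CPM in upper-layer-like spots and 185 CPM in the remaining spots (3.12-fold lower, 2.56 to 3.84). Zfpm2 stood at 0.082 on the log2 scale with the top 400 spots. Sox5 was at 350.1 CPM in upper-layer-like and 384 CPM in remaining spots and did not pass the size rule. Per spot, the deep-layer sum was above the median of the remaining spots in 24 of 200 upper-layer-like spots.

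Set against deep-layer-like spots, upper-layer-like spots had more of the upper-layer genes and less of the deep-layer and myelin genes. Both groups come from cortex-like spots of 1 section and the upper-layer-like spots are in both comparisons, so the 2 comparisons are not independent. Of 3986 features at 50 CPM, 213 (5.34%) were higher and 232 (5.82%) lower, at a median log2 ratio of -0.03. List counts over deep-layer-like spots compare with these shares. With CPM over all counts of a spot, 193 were higher and 124 lower. The gate and ranking genes set this contrast, so their ratios carry no weight: Hs3st2 was 15.7-fold lower and Cux2 3.73-fold higher.

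Nectin3, a cell adhesion molecule, was at 107 CPM in upper-layer-like spots and 32.3 CPM in deep-layer-like spots (3.30-fold higher, 2.34 to 4.75). Tafa1 and Tafa2, secreted chemokine-like proteins, were at 1606 CPM in upper-layer-like and 494 CPM in deep-layer-like spots (3.25-fold) and at 785 CPM in upper-layer-like and 283 CPM in deep-layer-like spots (2.77-fold). Over the remaining spots, Tafa1 (924 CPM there) also passed, but Nectin3 (71.3 CPM) and Tafa2 (683 CPM) did not. At ranks 201 to 400 Tafa2 was at 1322 CPM, above its level in upper-layer-like spots. Unc5d was at 1032 CPM in upper-layer-like spots and 401 CPM in deep-layer-like spots (2.57-fold higher, 2.33 to 2.84) and Cux1 at 364 CPM in upper-layer-like spots and 153 CPM in deep-layer-like spots (2.38-fold higher, 2.02 to 2.81). Both upper-layer genes were thus higher against either set. Lingo2, a leucine-rich repeat membrane protein, was at 2412 CPM in upper-layer-like and 972 CPM in deep-layer-like spots (2.48-fold), Pantr1, a long non-coding RNA beside Pou3f3, at 100.2 CPM in upper-layer-like and 42.6 CPM in deep-layer-like spots (2.35-fold, though -0.084 on the log2 scale with the top 400 spots), and Kcnh5 at 379 CPM in upper-layer-like spots and 133 CPM in deep-layer-like spots (2.84-fold higher, 2.40 to 3.39). Of 8 upper-layer genes at 50 CPM, 6 were higher and 0 lower, among them Calb1, a calcium-binding protein, at 92.6 CPM in upper-layer-like and 24.4 CPM in deep-layer-like spots (3.79-fold).

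Hs3st4 showed the lowest ratio outside the rule among features with a gene symbol and at least 100 CPM, at 221 CPM in upper-layer-like spots and 1412 CPM in deep-layer-like spots (6.38-fold lower, 5.71 to 7.14). Tle4, a corepressor of corticothalamic neurons, was at 58.2 CPM in upper-layer-like spots and 259 CPM in deep-layer-like spots (4.44-fold lower, 3.54 to 5.61) and Foxp2, a forkhead factor of layer 6, at 72.8 CPM in upper-layer-like spots and 267 CPM in deep-layer-like spots (3.66-fold lower, 2.97 to 4.53). Grik3, a kainate receptor subunit, was at 100.2 CPM in upper-layer-like and 356 CPM in deep-layer-like spots (3.56-fold lower). Of 12 deep-layer genes at 50 CPM, 10 were lower and Tshz2 was higher, at 255 CPM in upper-layer-like spots and 144 CPM in deep-layer-like spots (1.76-fold higher, 1.48 to 2.11). Slc17a7, the vesicular glutamate transporter of cortical neurons, was also lower, at 196 CPM in upper-layer-like and 300.4 CPM in deep-layer-like spots, along with Neurod2, Neurod6 and Nptx1.

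Of 18 potassium channel genes at 50 CPM, 7 were higher, 2 lower and the others did not pass, with a median log2 ratio of 0.40. Kcnq5 was at 1666 CPM in upper-layer-like spots and 971 CPM in deep-layer-like spots (1.72-fold higher, 1.60 to 1.84) and Kcnip4 at 5512 CPM in upper-layer-like spots and 3608 CPM in deep-layer-like spots (1.53-fold higher, 1.47 to 1.58), while Kcna1 and Kcnip3 were lower. Among glutamate receptor genes 0 were higher, and Grik3 and Grm8 lower, of 18, and among GABA receptor genes Gabra2 was higher and Gabra5 lower of 12. Rora, a nuclear receptor, was the 1 thalamus gene that passed, at 1559 CPM in upper-layer-like spots and 906 CPM in deep-layer-like spots (1.72-fold higher, 1.61 to 1.85), and among dentate granule genes Stxbp6 and Trpc6 were higher, Stxbp6 at 176 CPM in upper-layer-like spots and 82.8 CPM in deep-layer-like spots (2.12-fold higher, 1.70 to 2.68). Of the other lists, Nectin3 was higher among hippocampal pyramidal genes, Enpp2 among genes of meninges and choroid plexus, and Nr4a2 was lower among claustrum and insula genes, Adcy5 among striatum genes (at 0.067 on the log2 scale when ranked and gated without Cux2), and Stmn2 and Kif5a among pan-neuronal genes. Over deep-layer-like spots, 0 passed of 5 inhibitory, 6 Lamp5 interneuron and 1 hypothalamus genes at 50 CPM. The same held for 4 astrocyte, 1 microglia, and 3 endothelial and mural genes, and no oligodendrocyte precursor gene reached 50 CPM. Over all features 5.34% were higher and 5.82% lower, so numbers this small do not show that these cell types were level.

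The myelin genes Mbp and Mobp stood among the 10 lowest at 100 CPM or more. Mbp was at 129 CPM in upper-layer-like spots and 431 CPM in deep-layer-like spots (3.35-fold lower, 2.86 to 3.94) and Mobp at 22.7 CPM in upper-layer-like and 105 CPM in deep-layer-like spots. Of 12 myelin genes, 7 reached 50 CPM over deep-layer-like spots and 6 were lower, at a summed ratio of 0.308. Against the remaining spots, all 3 genes at 50 CPM were lower, Mbp and St18 among them, at a summed ratio of 0.497. Per spot, myelin sums ran from 0 to 4622 CPM (median 365) in upper-layer-like spots and from 0 to 17108 CPM (median 841) in the remaining spots. How far these markers move with the other ratios was not tested.

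Few listed genes of other cortical cell types reached 50 CPM, and most of those were within 1.5-fold of the remaining spots. Genes under that floor were not judged. Of 5 inhibitory neuron genes at 50 CPM, Adarb2 was lower and 0 higher, at a summed ratio of 0.892 that is opposite in sign to the median log2 ratio of 0.14. Gad1, an enzyme of GABA synthesis, was at 129 CPM in upper-layer-like and 110.4 CPM in remaining spots and Gad2 at 93.8 CPM in upper-layer-like and 122 CPM in remaining spots. Adarb2 was at 347 CPM in upper-layer-like spots and 717 CPM in the remaining spots (2.07-fold lower, 1.91 to 2.25). Among genes of Lamp5 interneurons, a class that also carries the ranking gene Lamp5, 0 were higher and Adarb2 lower of 6 at 50 CPM. Their summed ratio was 0.696, and 1.08 over deep-layer-like spots. Adarb2 gave 595 of the 1493 counts of this list in upper-layer-like spots and 13889 of 24194 in the remaining spots. Reln, a secreted protein of that class, was at 116 CPM in upper-layer-like and 119 CPM in remaining spots. Vip, a neuropeptide of another class, was under the 50 CPM floor at 27.4 CPM in upper-layer-like and 5.22 CPM in remaining spots (ratio 5.25, 3.63 to 7.49).

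Among 6 astrocyte genes at 50 CPM, Slc1a2, a glutamate transporter, was higher at 1823 CPM in upper-layer-like and 1214 CPM in remaining spots (1.501-fold). Its ratio was 1.90 in the shallower 100 upper-layer-like spots and 1.32 in the deeper 100, and deep-layer-like spots held 2322 CPM. Slc4a4, a bicarbonate transporter, was lower at 224 CPM in upper-layer-like and 396 CPM in remaining spots. With the top 400 spots Slc4a4 was instead higher, at 0.26 on the log2 scale. The astrocyte sum was at a ratio of 1.17 and its median log2 ratio, -0.06, had the other sign. Microglia genes (0 of 1 passing at 50 CPM, summed ratio 0.926) and endothelial and mural genes (0 of 2, 0.957) did not pass in either direction. Oligodendrocyte precursor genes were all under 50 CPM. Ttr, Enpp2 and Ptgds were lower among genes of meninges and choroid plexus, Rgs9 and Adcy5 were lower among striatum genes, whose summed ratio of 1.06 and median log2 ratio of -0.73 differ in sign, although Adcy5 stood at 0.030 on the log2 scale when ranked and gated without Cux2, and claustrum and insula genes had 0 passing of 1 at 50 CPM.

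The upper-layer-like spots varied among themselves. By rank, Pdzrn3 was at 539, 489.9, 554 and 486 CPM in successive groups of 50 upper-layer-like spots, then 315 CPM at ranks 201 to 400 and 101 CPM at ranks 401 to 800. Camk2n1 was at 1635, 1761, 1479.8 and 1419 CPM in the same groups, then 835 and 398 CPM. Both were higher in each band within the 200 than in either band outside. Ntng1 ran the other way, at 96.3, 109, 107 and 121 CPM within the 200 and 263 and 703 CPM outside. Zbtb20 was at 453 CPM at ranks 151 to 200 and 1567 CPM at ranks 201 to 400, and Prox1 at 28.7 and 153 CPM, so both were higher just outside the group than at its lower edge.

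**Figure D4:**
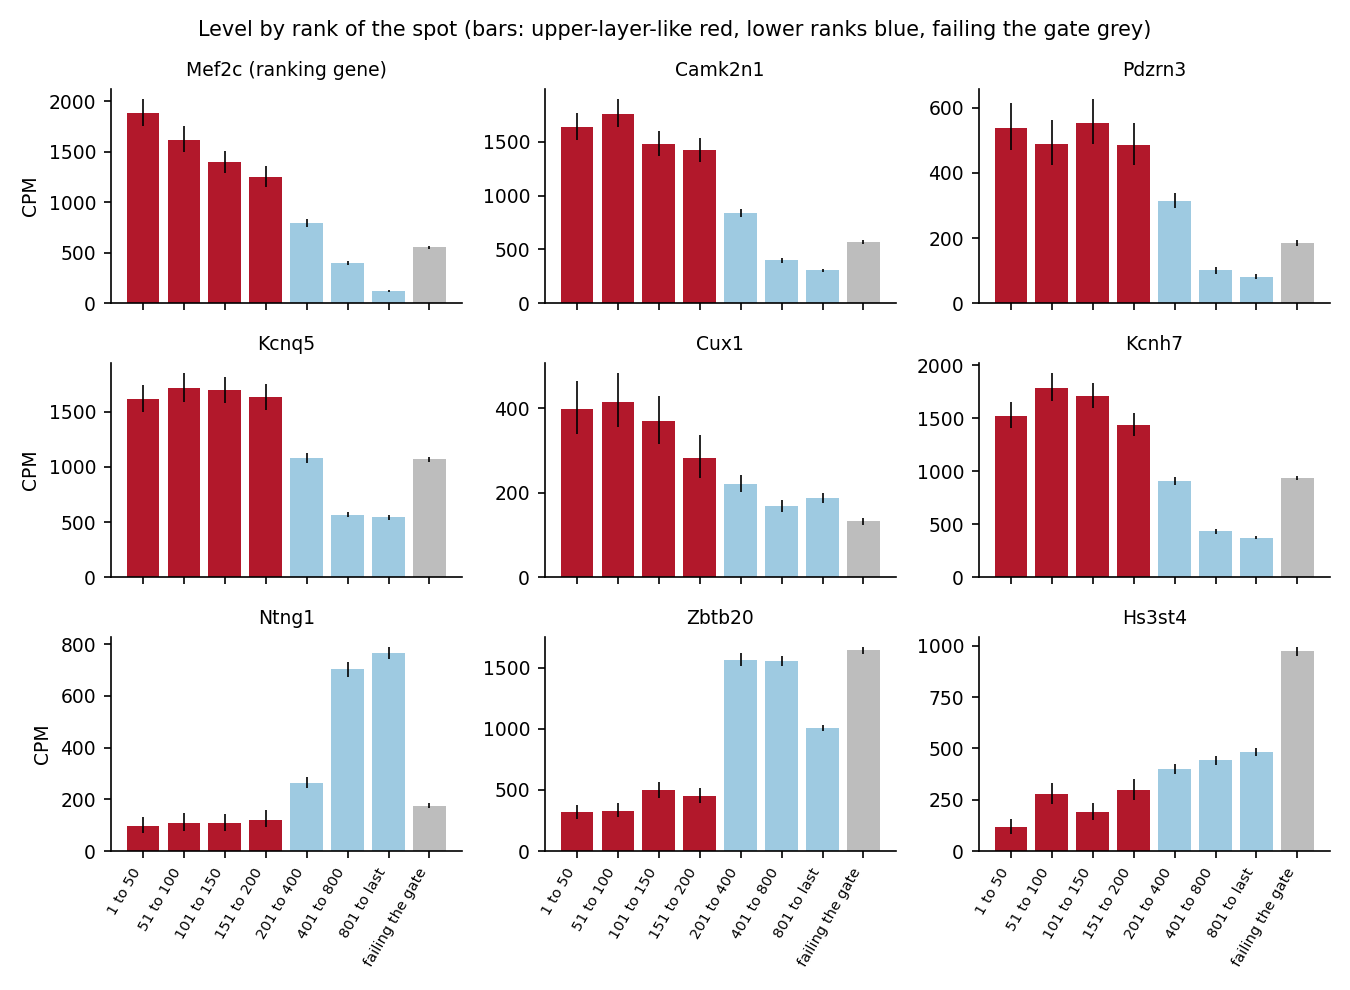
Level in CPM of 1 ranking gene and 8 others by rank, with 95% counting intervals, for 4 bands of 50 upper-layer-like spots, ranks 201 to 400, ranks 401 to 800, the later ranks and the spots that failed the gate. Pdzrn3 and Camk2n1 are highest over the first 200 ranks and lower after them, while Ntng1 and Zbtb20 are higher after them.

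The deeper 100 upper-layer-like spots (median 14900 counts) and the shallower 100 (median 8414.5) gave similar ratios over the remaining spots for Pdzrn3, at 3.35 (3.06 to 3.65) and 3.20 (2.81 to 3.63), and for Zbtb20, at 0.283 (0.258 to 0.310) and 0.272 (0.236 to 0.311). For Camk2n1 the ratio was 2.85 (2.70 to 3.001) in the deeper and 3.76 (3.52 to 4.02) in the shallower spots, and for Slc17a6 0.118 (0.0644 to 0.198) and 0.429 (0.271 to 0.645), so the size of these differences moved with depth while the direction did not. Lists of 8 other regions and cell types found 11 of the 200 spots above the 95th percentile of the remaining spots in at least 1 list, and 2 of these in 2 or more. The same share among the remaining spots is not given here, so 11 cannot be read as many or few. No upper-layer-like spot exceeded the highest remaining spot in any of the 24 lists. Without these 11 spots, which were left out on seeing the data, 218 features were higher and 316 lower than in the remaining spots.

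**Figure D5:**
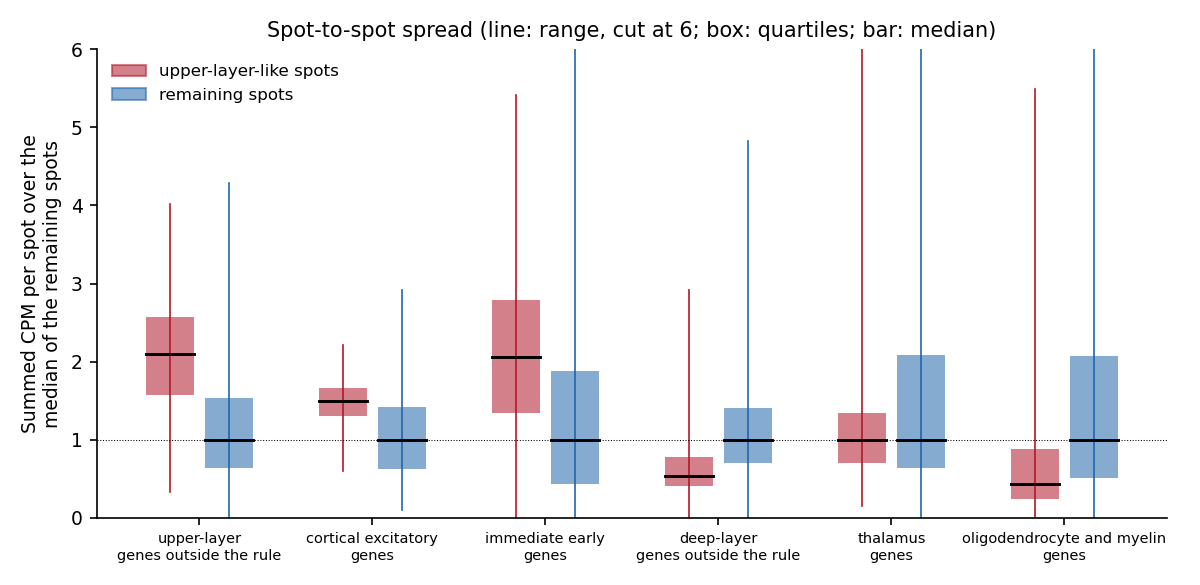
Summed CPM per spot of 6 gene lists over the median of the remaining spots, for upper-layer-like and remaining spots (line, range cut at 6; box, quartiles; bar, median). Upper-layer and cortical excitatory sums sit above 1 in most upper-layer-like spots and the deep-layer and myelin sums below 1, with overlapping ranges throughout.

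Random priming of total RNA can also read introns, which make up most of a long gene. The genes higher than in the remaining spots had a median span of 110.6 kb, those lower 152.5 kb and all 4056 features 87.7 kb. Against deep-layer-like spots the medians were 157.7 kb for higher genes, 89.5 kb for lower genes and 85.8 kb for all. The medians of genes that passed the rule were above that of all features in each case, by the least for genes lower than in deep-layer-like spots. The part of gene span in these ratios was not tested.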

How the data were processed

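Total RNA was measured by spRandom-seq in 1 brain and 1 heart FFPE section. The deposited matrices hold raw counts per feature and barcode, with 40276 features and 4992 barcodes each. STARsolo and the mm39 build are named in the submitters' processing notes, without a version or roles. Whether molecular tags were merged, introns counted or strand used is not given in the sources used here. No per-sample column was left out.

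Counts were summed over spots and divided by the summed counts outside 66 features (23 of the ribosomal DNA unit, 37 mitochondrial and 6 other structured RNAs) to give CPM. Features at 1.5-fold or more with at least 50 CPM in the higher group passed the size rule. Intervals are exact conditional binomial 95% intervals and shares of spots are plain percentages. List medians cover listed genes at any level, without the rule genes, and add 0.5 to each count. With 1 library there is no replicate test. The ratios, intervals and size rule were tested on simulated summed counts with known ratios and no spot-to-spot spread. The choice of scaling was not tested on them. Python 3.11.15, numpy 2.4.6, scipy 1.17.1, pandas 2.3.3 and matplotlib 3.10.9 were used, with random seed 1.

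Named genes are the 8 rule genes, the 15 largest ratios in each direction over the remaining spots and the 10 over deep-layer-like spots, at 100 CPM or more and with a gene symbol, and from each of 24 lists the 2 to 4 most abundant members and those against the list's median. List members that passed the size rule, Vip, Arc, Camk2a, Camk2b, Pou3f3 and the genes whose promoters are printed were named after their values were seen. Some genes that these rules name are not reported here. Members of the group and lists were chosen with earlier results of these data known. GENCODE M21, on GRCm38, gave spans for 35500 of 40276 feature IDs and no coordinates printed here; promoters come from RefSeq. A search of all called promoters for motifs was void, because fewer than 80% of called symbols had a promoter. Alternatives changed scaling, spot weights, depth, rank genes, gate, group size, size rule and floor, and 3 further ones were added after the data were seen.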

Additional observations from a re-analysis of the deposited data

How the results depend on the processing

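Counts are features higher and lower, first over the remaining spots and then over deep-layer-like spots, where the main settings gave 208 and 285, and 213 and 232. Fewer were lower with CPM over all counts of a spot (171 lower over the remaining and 124 lower over deep-layer-like spots), where only part of the total is outside the structured RNA. With the top 100 spots 331 were higher and 419 lower over deep-layer-like spots. With the top 400, counts were 117 and 161, and 126 and 119. Ranked without Mef2c they were 77 and 110 over the remaining spots, of which 65 and 91 had passed with all ranking genes; ranked without Cux2 they were 115 and 161. The cause of these changes was not tested. A ratio of at least 2 gave 50 and 91, and 42 and 76; a floor of 20 CPM 347 and 628, and 518 and 610; and no floor 4639 and 4288, and 3612 and 3696, by the construction of these settings. Some genes changed sign, on the log2 scale over the remaining spots: Hpca to 0.14 with each spot weighted equally; Prox1 to 0.025, Cdh9 to 0.00182, Zfpm2 to 0.082, Glis3 to 0.29 and Slc4a4 to 0.26 with the top 400; hypothalamus genes, as a sum, to 0.081, Gabrb1 to 0.0053 and Ahi1 to 0.20 ranked without Mef2c; and Tbr1 to -0.56 and Adcy5 to 0.030 ranked without Cux2. Over deep-layer-like spots Cdh9 went to 0.51 and Pantr1 to -0.084 with the top 400, and Adcy5 to 0.067 ranked without Cux2. The cause of these changes was not tested. The other rankings, the stricter depth cut, equal spot weights, the counts not used for choosing and the 3 added settings kept each of the 4 counts within 1.5 times, and so did the missing gate and weighting to the members' depth for the 2 counts over the remaining spots, where alone these were run. Size rule and floor alternatives apply to counts of features only, and list sums stand for list medians. No paired analysis was possible because each tissue has 1 library. Depth limits single spots: Pdzrn3 was at 0 in the median remaining spot.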
